A study of Homo sapiens with 40 samples.

Results

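Early ligand-opened regions of BT474 are the stretches of chromatin that held an ATAC-seq peak soon after EGF or heregulin and none before it. ATAC-seq marks open chromatin by the places where a transposase can insert sequencing adapters. The regions were chosen by the peak lists themselves. Peaks of all 40 libraries on chromosomes 1 to 22 and X were merged where they overlapped by 1 bp, and a region became a member when it had a peak in at least 3 of the 4 BT474 libraries treated with EGF or HRG for 1 h and in none of the 4 BT474 libraries of the untreated baseline (0 h) and the 1 h vehicle control. The rule found 1491 members among 76603 merged regions, of which 71600 were present in at least 2 lists. The opening at 1 h is thus a definition and not a finding, while the later times, the resistant line and the DNA sequence were not used by the rule.

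BT474 is an established HER2-overexpressing ductal breast carcinoma line that responds to the antibody trastuzumab, and BT474R is a single resistant clone derived from it under the antibody. Cells of both lines were serum starved and then given EGF, heregulin (HRG) or water as the vehicle control in starvation medium, and were collected after 1, 12 and 24 h, beside untreated cells at baseline. Each of the 20 groups had 2 libraries, and no label says that the libraries of a group came from separate cultures, so the p-values below measure only the spread between these libraries. The lists held 47571 to 56846 peaks in BT474 and 32479 to 56494 in BT474R. The promoters of 8 luminal epithelial genes, KRT8 and GATA3 among them, had a peak in all 20 libraries of each line. Of 7 genes that mark blood, endothelial or fibroblast cells, 5 had no promoter peak in any library, and CDH5 and COL1A1 had one in all of them.

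EGF binds the EGFR receptor, and heregulin binds HER3 and HER4. The bound receptors pair with HER2 and switch on the RAS-MAPK and PI3K-AKT relays within minutes. These relays induce and phosphorylate immediate early transcription factors such as the FOS and JUN proteins, which pair to form AP-1 and bind mostly at distal enhancers. Serum response factor, which binds the CArG box, and TEAD proteins, which carry the YAP and TAZ coactivators, are further endpoints of growth factor and actin signals.

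The letters of 7 members are given first, because AP-1 letters were found in different shares of the members still open late and the members that closed. Each is 151 bases around the summit, on the plus strand of hg38, with the AP-1 match TGAGTCA or its reverse complement TGACTCA in capitals. They were chosen from the members with the highest 1 h peaks in each late class and from members near listed pathway genes. The choice also used the AP-1 letters, since CFL1 was picked as a member without a match and the others as members with one. They therefore do not show how common a match is in a class. CAB39 and MRPL39, also among the kept members with the highest 1 h peaks, held none within 100 bp of the summit, and 24.4% of closed members held one. Each carries the name of the nearest protein-coding start site and its late class, which is explained below.
BORCS5, kept, chr12:12398439-12398589: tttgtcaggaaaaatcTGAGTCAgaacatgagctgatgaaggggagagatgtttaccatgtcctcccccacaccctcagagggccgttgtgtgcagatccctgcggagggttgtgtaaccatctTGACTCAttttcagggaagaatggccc
BCOR, kept, chrX:39908243-39908393: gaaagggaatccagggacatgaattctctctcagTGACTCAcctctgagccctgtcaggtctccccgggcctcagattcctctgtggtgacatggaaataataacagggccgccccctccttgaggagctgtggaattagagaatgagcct
MAFK, kept, chr7:1533922-1534072: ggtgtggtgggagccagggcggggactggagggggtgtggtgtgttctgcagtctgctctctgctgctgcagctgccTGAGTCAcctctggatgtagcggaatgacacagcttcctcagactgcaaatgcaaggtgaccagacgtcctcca
ITGAV, kept, chr2:186575421-186575571: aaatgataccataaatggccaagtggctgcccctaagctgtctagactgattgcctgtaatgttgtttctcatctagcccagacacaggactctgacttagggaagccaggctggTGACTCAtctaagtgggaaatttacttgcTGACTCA
SULF2, 12 h only, chr20:47705239-47705389: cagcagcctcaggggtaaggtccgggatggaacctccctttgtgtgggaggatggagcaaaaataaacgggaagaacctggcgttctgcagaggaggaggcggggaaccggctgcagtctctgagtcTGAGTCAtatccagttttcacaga
TGFB2, intermediate, chr1:218377402-218377552: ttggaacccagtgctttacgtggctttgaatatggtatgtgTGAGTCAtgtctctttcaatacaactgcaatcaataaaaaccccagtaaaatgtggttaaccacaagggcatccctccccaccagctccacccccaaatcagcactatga
CFL1, closed, chr11:65851396-65851546: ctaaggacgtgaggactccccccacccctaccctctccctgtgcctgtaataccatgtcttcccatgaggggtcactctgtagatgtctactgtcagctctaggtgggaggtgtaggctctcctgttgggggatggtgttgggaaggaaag

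The BORCS5 member, in an intron of the gene of a lysosome-positioning factor 41096 bp inside its start, holds 2 AP-1 matches, and the ITGAV member, 14514 bp upstream of the gene of the integrin alpha V chain, also holds 2. The BCOR, MAFK, SULF2 and TGFB2 members hold 1 each in the letters shown. The CFL1 member, which closed, holds none.

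Of the 1491 members, 854 (57.3%) had a peak in all 4 ligand lists at 1 h, 288 (19.3%) in both EGF lists and 1 HRG list, and 349 (23.4%) in both HRG lists and 1 EGF list. Just outside the rule stood 846 regions with 2 of 4 ligand lists and no control list, and 942 regions with at least 3 ligand lists and 1 control list. The mirror of the rule, at least 3 of the 4 baseline and control lists and no 1 h ligand list, was met by 791 regions. The members were weak peaks. The score the authors deposited for a peak, the area under its curve of significance, had a median of 264 over the 5347 peaks that made up the members in the 1 h ligand lists, against 578 over all 198662 peaks in those lists, and 91.8% of the member peaks lay under a score of 400. To compare strength between lists, each score was turned into a rank percentile in its own list, where 100 is the highest peak. The median member stood at rank percentile 13.2 at 1 h, with quartiles of 8.58 and 19.7.

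At 12 and 24 h more members had a peak under ligand than under vehicle. The rule asked for a peak at 1 h, so the 1 h counts are set by it and a lower count later is no finding. In BT474 the 2 libraries of EGF at 1 h held a peak in 1391 and 1242 members, and those of HRG in 1277 and 1417. At 12 h the HRG libraries held 929 and 912 members and the EGF libraries 618 and 931. By 24 h the HRG libraries held 682 and 746, and the EGF libraries 698 and 785. The vehicle control held 139 and 137 members at 12 h and 230 and 153 at 24 h, so every late ligand library held more members than every late control library. The late ligand lists were also mostly longer, at 52135 to 56846 peaks against 49386 to 52331 in the late control lists, and the part of list length in these counts was not tested.

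**Figure D1:**
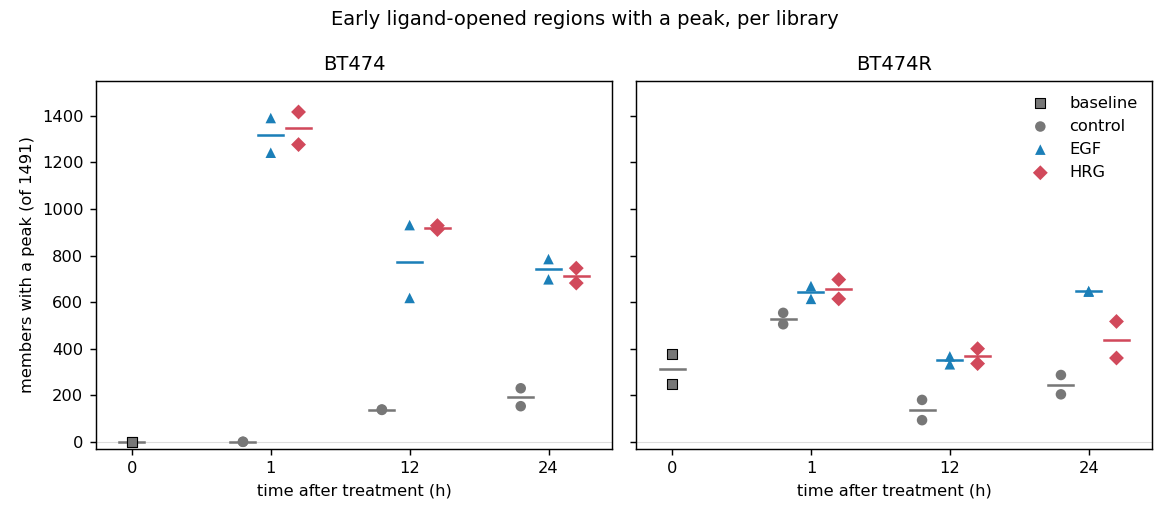
Number of members with a peak (vertical axis, of 1491) in each library against time after treatment in hours (horizontal axis, evenly spaced categories), for BT474 (left) and BT474R (right). Each point is 1 library and each short line the mean of 2. In BT474 the baseline and 1 h control are at 0 by the rule, the 12 h and 24 h ligand libraries lie between 618 and 931, and the late controls between 137 and 230.

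Each member was placed in a late class. It was open at a time with a peak in at least 3 of the 4 ligand libraries of BT474 and closed with at most 1. By this measure 576 members (38.6%) were open at both 12 and 24 h and are called kept, and 467 (31.3%) were closed at both. A further 114 (7.65%) were open at 12 h and closed at 24 h, 22 (1.48%) were closed at 12 h and open at 24 h, and 312 (20.9%) had 2 of 4 lists at some time and are called intermediate. The extremes were well filled, with 358 members in all 8 late ligand lists and 292 in none of them. Several of these counts moved when a single library was left out, but the thresholds changed with it. Without a 1 h ligand library a member needed a peak in all 3 that were left, so members can only be fewer. Without a late ligand library, 2 of 3 counted as open and at most 1 as closed. No intermediate state was then left at that time, so these shifts do not show what a particular library did. Members numbered 928 without HRG at 1 h replicate 2 and 954 without EGF at 1 h replicate 1, and the closed class had 250 and 265 members without these libraries and 303 without HRG at 1 h replicate 1. The 12 h only class had 216 members without EGF at 12 h replicate 1 and 175 without EGF at 12 h replicate 2, and 72 and 70 without HRG at 1 h replicate 2 and EGF at 1 h replicate 1. The 24 h only class ranged from 11 to 54 as single libraries were left out.

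**Figure D2:**
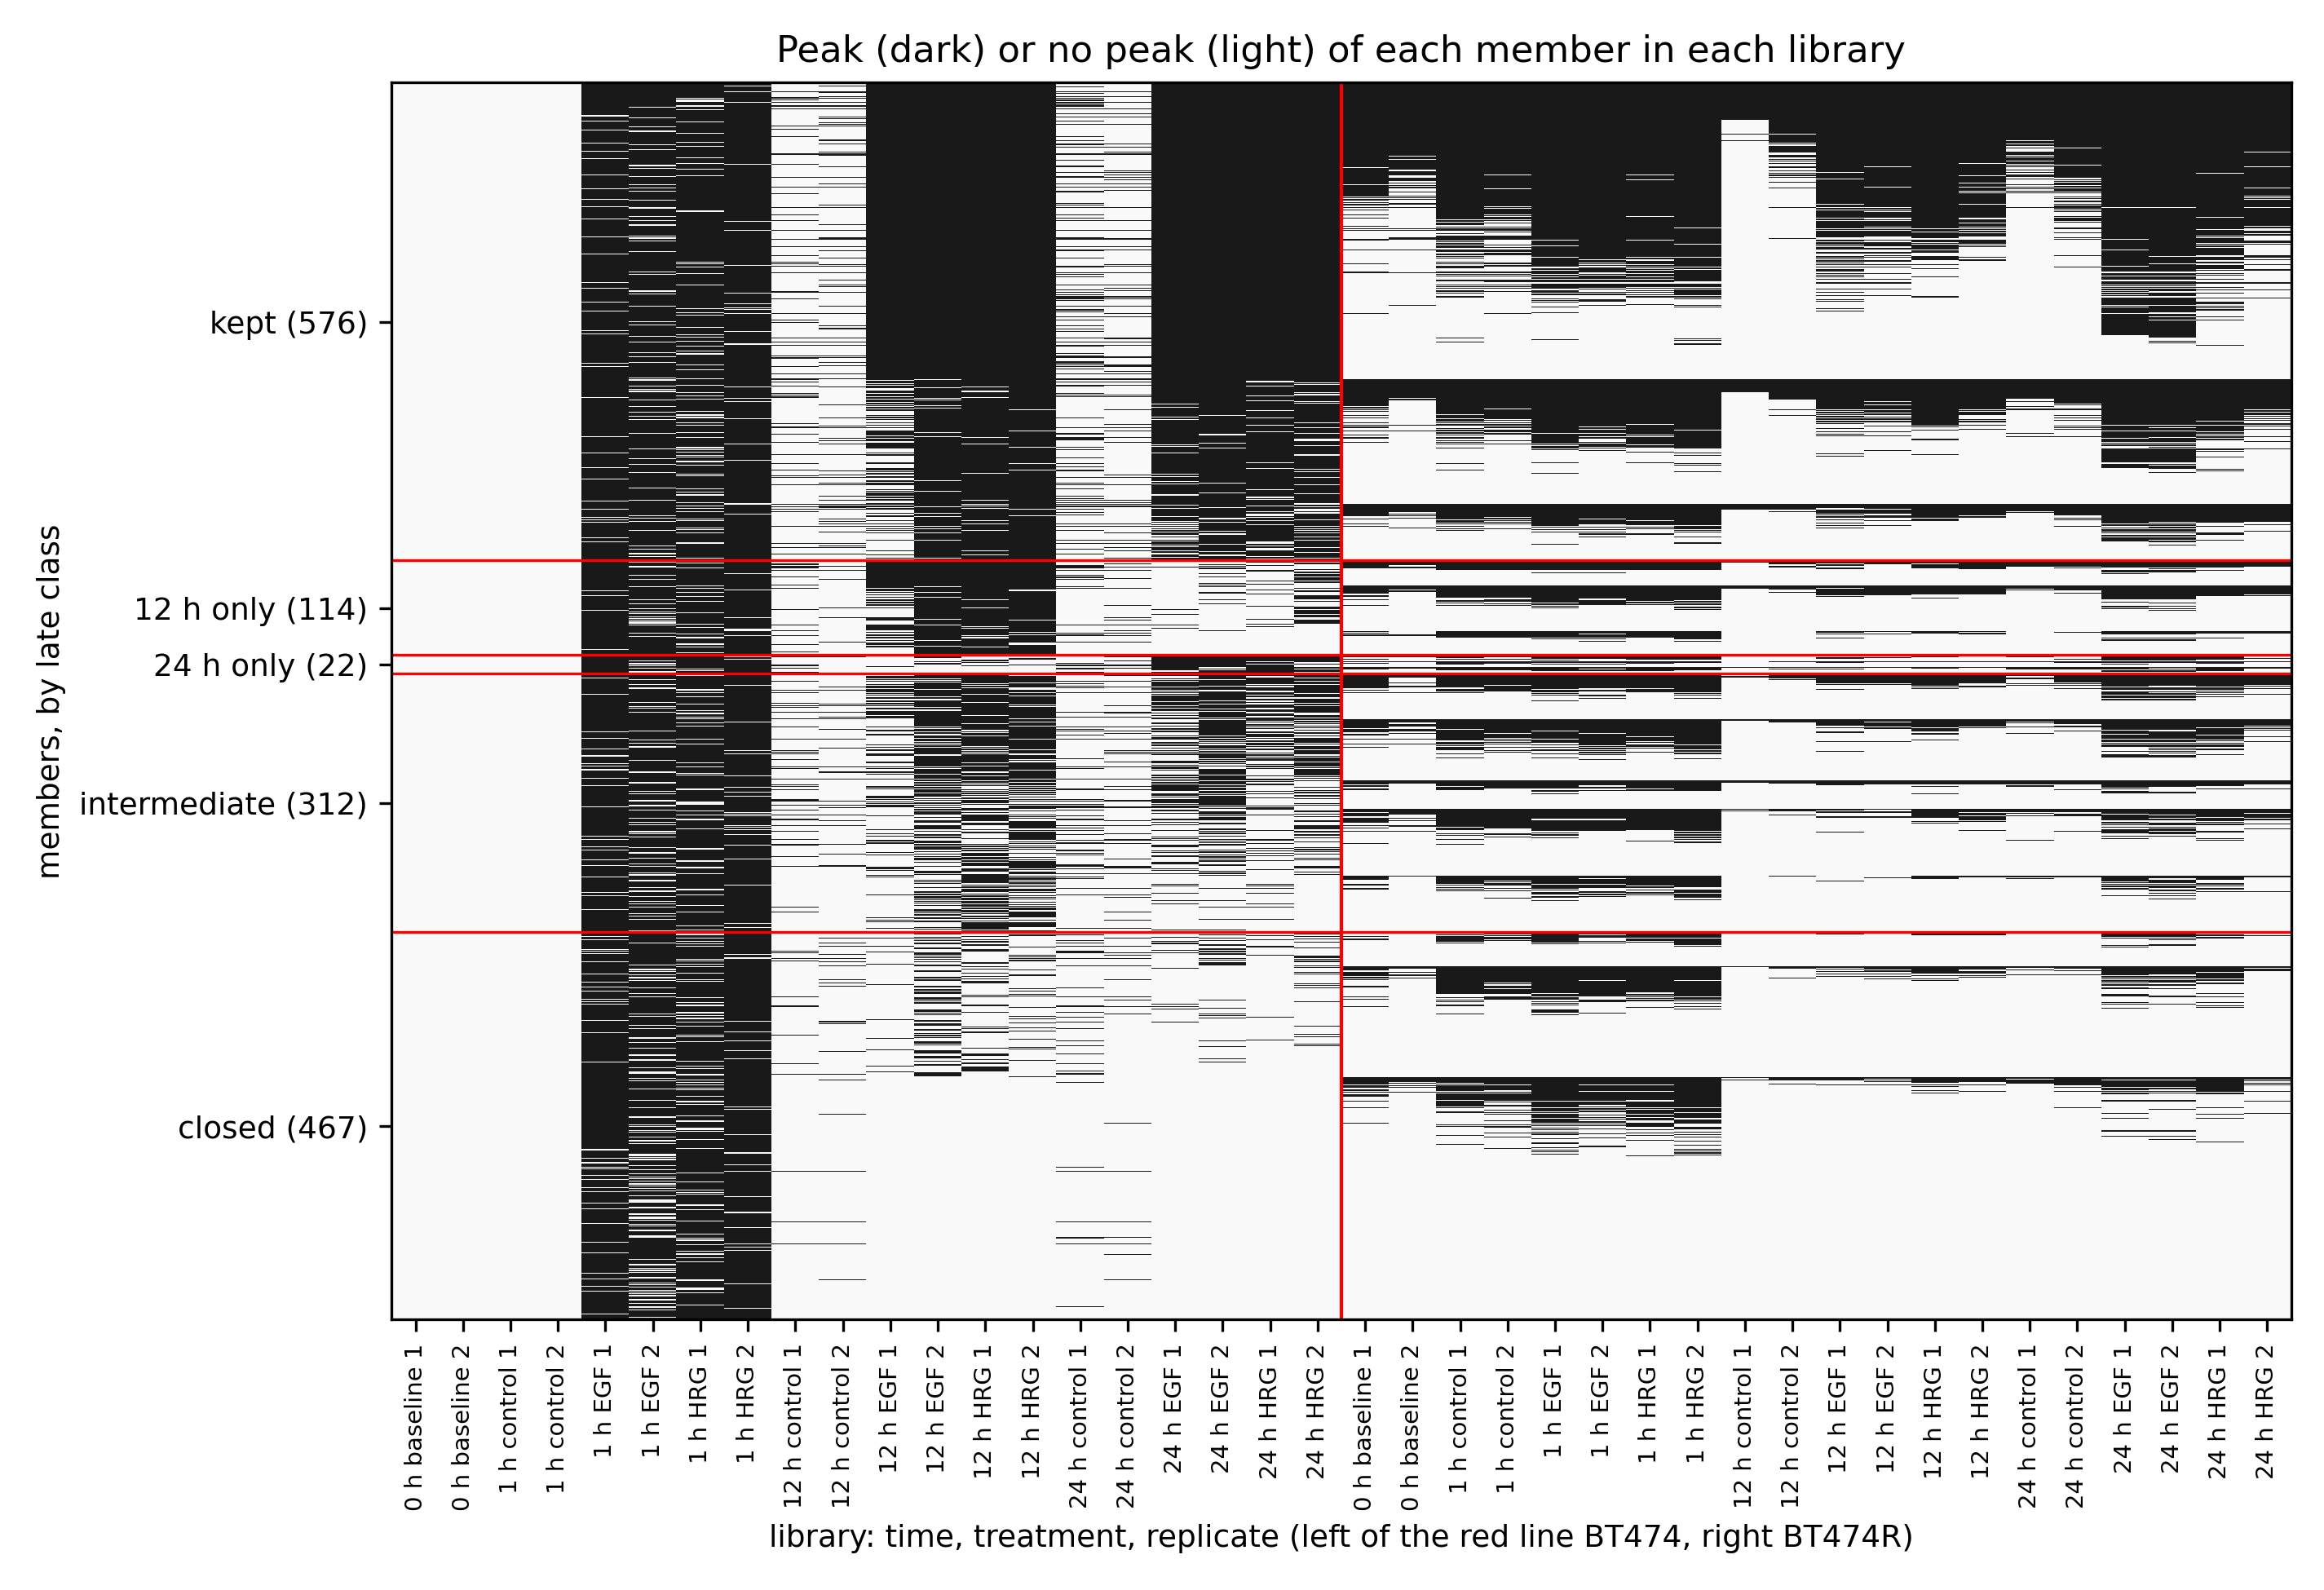
Peak (dark) or no peak (light) of the 1491 members (rows, grouped by late class and ordered within it by the number of late ligand lists and of BT474R lists) in the 40 libraries (columns, by line, time, treatment and replicate). In BT474 the 576 kept members are dark under ligand at 12 and 24 h and the 467 closed members light, as the classes define, while the late control columns are mostly light in both. In BT474R the dark rows concentrate in the kept class.

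More of the members seen in every 1 h ligand list were kept. Of the 854 members found in all 4 ligand lists at 1 h, 44.3% were kept and 26.6% closed. Of those that lacked 1 HRG list, 34% were kept and 34.4% closed, and of those that lacked 1 EGF list, 28.7% were kept and 40.4% closed. Members in all 4 lists also had stronger peaks at 1 h. Their median rank percentile was 17, against 8.44 for those that lacked 1 HRG list and 10.5 for those that lacked 1 EGF list. In the regions just outside, 22.8% of those with 2 ligand lists were kept, and 54.4% of those with 1 control list. The mirror regions, open at baseline and without a peak under ligand at 1 h, were in the kept pattern in 54.1%, that is open again under ligand at both late times. Of these 428 regions, 333 also had a peak in 3 or 4 of the 4 late control libraries and 16 had none, so most were open under vehicle as well.

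The classes were defined by late peaks, so their late ranks are given as a description only. In the kept members the median rank percentile was 14.5 at 1 h, 20.5 at 12 h and 20.4 at 24 h, over the ligand libraries in which they had a peak, and 408 of the 576 stood higher at 12 h than at 1 h and 389 higher at 24 h. The closed members started at 12.4, close to the kept members. Where a closed member still had 1 peak, its median was 6.39 at 12 h (147 members) and 5.99 at 24 h (69 members). The 12 h only members stood at 13.9 at 1 h and 10.9 at 12 h. By strength at 1 h, 33.2% of the 388 members at rank percentile 5 to 10 were kept and 34.3% closed, and 48.1% of the 322 members at 20 to 40 were kept and 29.8% closed.

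**Figure D3:**
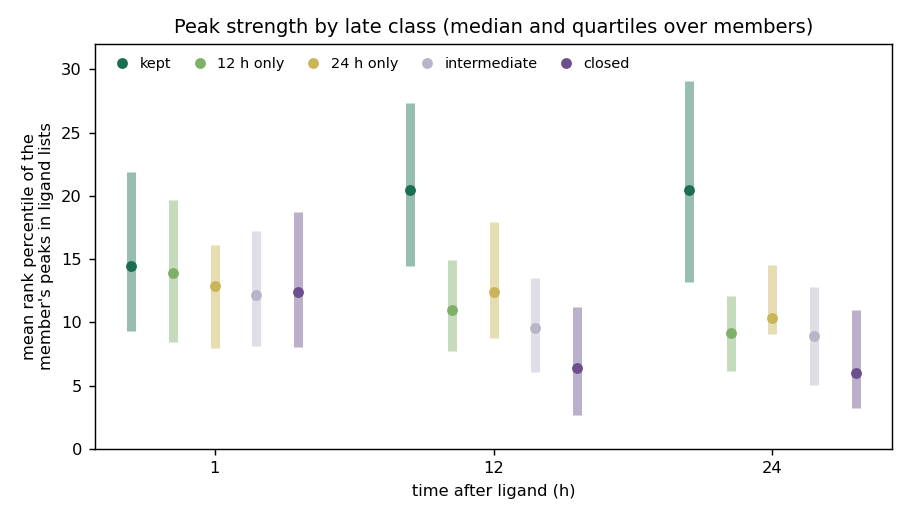
Mean rank percentile of a member's peaks in the ligand libraries of BT474 (vertical axis, 100 is the highest peak of a list) at 1, 12 and 24 h after ligand (horizontal axis), by late class. Points are medians over members and bars run from the lower to the upper quartile. All classes lie between 12.1 and 14.5 at 1 h, and the kept class lies at 20.5 and 20.4 at 12 and 24 h. The classes were cut on late peak presence, so late ranks are not independent of them. Members without any peak at a time are not plotted for it.

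The late libraries allow a test, since they did not choose the members. Presence of a peak in the 8 late ligand libraries of BT474 was compared with the 4 late control libraries by Fisher's exact test (two-sided, on the number of libraries with a peak, Benjamini-Hochberg adjustment over the 10109 regions that could pass). Of the members, 807 could be tested and 404 were open more often with ligand at an unadjusted p below 0.05, which is 50.1% of those tested against 18.1% of all regions tested. Tested or not, the share was 27.1% of members. It was 20.5% of the regions just outside with 1 control list and 14.1% of those with 2 ligand lists. After adjustment 240 members passed (adjusted p = 0.0244 by the exact test) against 7.8% of all regions tested, all of them with a peak in 8 of 8 ligand and 0 of 4 control libraries. Another 106 members had 7 of 8 against 0 of 4 and 58 had 8 of 8 against 1 of 4. Only 3 members were open less often with ligand, against 2.29% of all regions tested, and each of them had no late ligand peak and a peak in all 4 late controls. All 404 calls lay in the kept class, where they made up 70.1%, because the test needs a peak in at least 7 of the 8 late ligand libraries. Without EGF at 12 h replicate 1 the number of calls was 471, but a call then needed fewer late ligand libraries.

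Few members had a peak under vehicle at the later times. The rule asked for no peak at baseline or in the 1 h control, so this is no independent finding. Of all members, 1132 (75.9%) had no peak in any late control library and 37 had one in all 4. Just outside the rule, 70.9% of the regions with 2 ligand lists and no control list had none, and 31.4% of those with 1 control list. Among the kept members 391 (67.9%) had no late control peak, and among the closed members 415 (88.9%) had none.

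No member was called between EGF and HRG at the later times. With 4 libraries of each ligand, a call needs 4 of 4 against 0 of 4 (the smallest p the exact test can give is 0.0286), and of the 97 members that could be tested 0 were called in either direction, against 2.95% of all regions tested that were open more often with EGF and 0.422% more often with HRG. No region of any kind passed adjustment, and leaving out single libraries gave 1 to 9 member calls. A call then needed fewer libraries, so the number could only rise. At 12 h, 69 members had both HRG lists and no EGF list, against 11 of the opposite kind, and at 24 h the numbers were 11 and 36. The 12 h count includes EGF at 12 h replicate 1, which held 618 members where the other 12 h ligand libraries held 912 to 931. Between the late times, 14 of 97 testable members were open in 4 of 4 ligand libraries at 12 h and 0 of 4 at 24 h, against 4.48% of all regions tested, and 0 members changed the other way, against 3.11%. None of these passed adjustment, and the number of calls was 31 without EGF at 12 h replicate 1, 28 without HRG at 24 h replicate 2 and 23 without EGF at 24 h replicate 2. In these counts too a call needed fewer libraries, so they do not show what a particular library did.

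Members were distal. Only 87 (5.84%) had their summit within 1 kb of a protein-coding start site, against 20.5% of all 71600 regions, while 675 lay in introns and 697 between genes. The median distance to a start site was 29025 bp against 17095 bp over all regions, and outside promoters it was 33382 bp for members against 28567 bp. Members were narrower than the rest, with a median merged width of 379 bp against 551 bp, and lower in GC around the summit at 46.8% against 51.7%. These traits were not particular to members. The mirror regions had 4.42% at promoters, a median width of 473 bp and GC of 47.8%. Regions just outside had 7.8%, 345 bp and 47.8% with 2 ligand lists, and 8.7%, 396 bp and 48.3% with 1 control list. Kept and closed members differed little in these measures, with 4.51% and 6% at promoters, median widths of 399 and 363 bp and median GC of 47.3% and 45.8%. Members were scattered, since the median distance to the nearest other member was 433470 bp and 65 members (4.36%) had another within 10 kb.

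Of the motifs searched, AP-1 matched in the most members. A summit window of 201 bp (100 bp on either side of the summit of the highest-ranked peak) was searched on both strands for the letters of 17 motifs and for the CArG box, which was added after the values were seen. AP-1 (TGAGTCA) matched in 618 members (41.4%), against 13% of all regions and 15.3% of all regions outside promoters. The regions just outside the rule held a match in 29.4% and 30.7%, and the mirror regions in 8 of 791 (1.01%). In 100 members there were at least 2 matches. The match lay close to the summit, within 20 bp in 38% and within 50 bp in 75.9% of the 618, where in the 8104 other regions outside promoters with a match the shares were 34.6% and 70.2%.

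The AP-1 share was higher in kept than in closed members. It was 55.9% in the 576 kept members (95% Wilson interval 51.8 to 59.9, counting error only), 43.9% in the 12 h only members, 40.4% in the intermediate members and 24.4% in the 467 closed members (interval 20.7 to 28.5). Of the 22 members open at 24 h only, 6 held a match (27.3%, interval 13.2 to 48.2). Counted by late ligand lists, 22.6% of members with none held a match, 38.1% of members with 4, 58% of members with 7 and 55.6% of members with all 8. Read the other way, 52.1% of members with an AP-1 match were kept and 18.4% closed, against 29.1% and 40.4% of those without, and of the 100 members with at least 2 matches 62% were kept and 11% closed. By strength at 1 h the share was 41.4% of members up to rank percentile 5, 37.4% at 5 to 10, 42.6% at 10 to 20, 43.8% at 20 to 40 and 45% of the 40 members above 40. With the summit taken from the 1 h ligand lists alone, an alternative added after the data were seen, the shares were 56.8% of kept and 24.4% of closed members.

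TEAD and CArG matches were commoner in members that closed. The TEAD letters GGAATG matched in 25.4% of members against 15.4% of all regions outside promoters, in 18.8% of kept members, 31.9% of closed members and 35.6% of the 292 members with no late ligand list. The match shared bases with an AP-1 match in only 14 members. The CArG box matched in 36 members (2.41%, against 0.94% of all regions), of which 3 were among the 576 kept members (0.521%) and 25 among the 467 closed members (5.35%). The EGR letters GCGTGGGCG were found in 0 kept and 7 closed members, and in 0.246% of all regions. CTCF letters (AGGGGGCGC) were in 1 member, against 1.01% of all regions. The forkhead letters GTAAACA, at 9.86% of members against 10.1% of all regions outside promoters, and the GATA letters AGATAAG, at 2.82% against 2.65%, were at the background. A match is a description of the letters and was not tested as a bound site. In 628 members (42.1%) none of AP-1, TEAD and CArG matched.

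**Figure D4:**
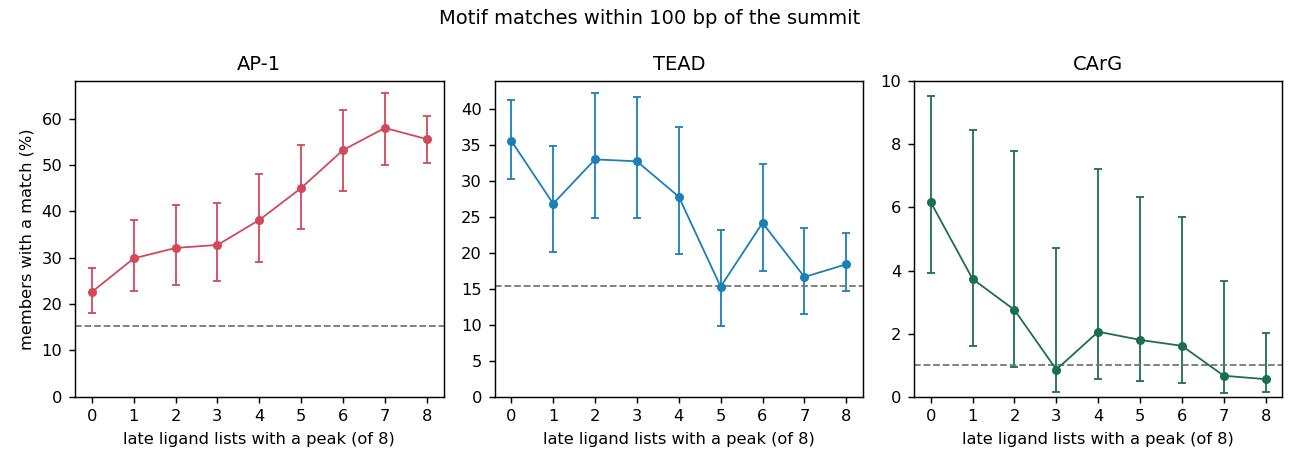
Share of members with an AP-1, TEAD or CArG match within 100 bp of the summit (vertical axes, percent, each panel on its own scale) against the number of BT474 ligand libraries at 12 and 24 h that had a peak (horizontal axis, 0 to 8). Bars are 95% Wilson intervals for counting error and dashed lines the share of all regions outside promoters. AP-1 is at 22.6% with 0 lists and 55.6% with 8, TEAD at 35.6% and 18.4%, and CArG at 6.16% and 0.559%.

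The contrast between kept and closed regions in AP-1 was as large with stricter peak cuts, which picked mostly other regions. When only peaks with a score of at least 400 were used, the same rule found 1047 regions, and only 60 of them (5.73%) overlapped the 1491 members. The others lay in merged regions with a listed baseline or 1 h control peak, so they were not without a peak before ligand. Closed there means closed by peaks above the cut, so weaker listed peaks may remain. Among those 1047 regions 404 were kept and 347 closed, AP-1 matched in 55.7% of the kept and 24.5% of the closed ones, TEAD in 23.3% and 27.7%, and CArG in 0.495% and 5.19%. With an equal number of top peaks from every list the rule found 963 regions, 52 of them overlapping members, with 249 kept and 483 closed. The same limits hold for these regions. AP-1 then matched in 61% of the kept and 28.6% of the closed regions, TEAD in 20.9% and 24%, and CArG in 0.402% and 3.31%.

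In the resistant clone a peak was found at a smaller share of members than of all regions. No BT474R library had a peak at 585 members (39.2%, against 13.9% of all regions), while 240 members (16.1%, against 57.8%) had a peak in both BT474R baseline libraries and 84 (5.63%, against 39.5%) in all 20. In neither baseline library was there a peak at 1105 members (74.1%, against 28.6%). Low shares were not particular to members. The BT474R baseline libraries held a peak at 25.2% and 16.8% of members. They held one at 24.5% and 15.2% of the regions just outside with 2 ligand lists, and at 39% and 26.6% of those with 1 control list. The library counts were 376 and 250 members at baseline, 554 and 505 in the 1 h control, 614 and 697 after HRG and 669 and 614 after EGF for 1 h. At 12 h they were 93 and 180 in the control, 400 and 336 with HRG and 367 and 333 with EGF, and at 24 h 204 and 287, 517 and 360, and 648 and 645. Every ligand library thus held more members than both controls of its time. The control lists held 56494 and 54256 peaks at 1 h against 47474 to 56334 in the ligand lists, 32479 and 40331 at 12 h against 37476 to 45808, and 41833 and 45799 at 24 h against 44351 to 55289, and the part of list length in these counts was not tested.

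The late class in BT474 went with the state of the region in BT474R. Of the closed members 63% had no peak in any BT474R library, against 16.5% of the kept members, and 28.5% of the kept members but 3.85% of the closed ones were open in both BT474R baseline libraries. The rule itself, applied to the 1 h and baseline libraries of BT474R, was met by 85 members (5.7%, against 0.74% of all regions). By Fisher's exact test of the 4 ligand libraries at 1 h against the 4 baseline and control libraries of BT474R, 43 of 74 testable members were open more often with ligand (p = 0.0286), against 9.33% of all regions tested, and 0 less often, against 4.18%. None passed adjustment, and the count was 76 without the 1 h control replicate 1, where a call needed fewer libraries. Tested or not, the share was 2.88% of members. It was 1.59% of the regions just outside with 1 control list and 1.18% of those with 2 ligand lists. In the 8 late ligand libraries of BT474R against the 4 late controls, 100 of 299 testable members were open more often, against 9.08% of all regions tested, and 0 less often, against 0.132%. None passed adjustment (the lowest adjusted p of the exact test was 0.0719). Tested or not, the late share was 6.71% of members, near the 6.37% of the regions just outside with 1 control list. It was 3.55% of those with 2 ligand lists. Of the 100 calls 81 were kept members and 3 were closed members, and their number was 63, 66 and 66 without the 12 h control replicates 1 and 2 and the 24 h control replicate 1.

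A direct comparison of the 8 late ligand libraries of BT474 with the 8 of BT474R called 313 of 518 testable members as open more often in BT474, which is 60.4% against 60.1% of all regions tested, and 287 after adjustment, which is 55.4% against 57.6%. These shares were near those over all regions tested, so they say nothing particular to the members. A further 20 members were open more often in BT474R, which is 3.86% of those tested against 19.8% of all regions tested. Tested or not, the share was 1.34% of members, against 3721 of all 71600 regions. Low numbers were also found in 9 of the 791 mirror regions and 11 of the 942 regions just outside with 1 control list. With 2 ligand lists the number was 31 of 846. A low share was thus not particular to members. The rule asked for peaks in BT474, so regions open only in BT474R could not be members. The part of this in the lower share was not tested.

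Closed members with some of the highest 1 h ranks of their class lay near CFL1, STAT6 and APOL1. The member 5002 bp downstream of the start of CFL1, the gene of the actin-severing protein cofilin, and in an intron of SNX32 had rank percentiles of 56.9 and 51 with EGF and 66.1 and 76.1 with HRG at 1 h, with no later BT474 peak and a single BT474R peak at 5.23 with EGF at 1 h. Within STAT6, the gene of a transcription factor of interleukin signaling, a member in an untranslated exon stood at 56.5 and 63.1 with EGF and 52.3 and 60.8 with HRG and had no peak elsewhere. The member 24776 bp from APOL1 stood at 60.5 and 51.3 with EGF and 52 and 60.1 with HRG. All 3 ranked above the middle of their lists at 1 h and were without a peak in all 8 ligand libraries at 12 and 24 h.

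The 4 kept members with the highest 1 h ranks, picked for those ranks, stood lower later, unlike most of their class. In the BORCS5 intron the EGF values were 60.4 and 62.2 at 1 h and 27.2 and 31.8 at 12 h, with a single EGF library at 7.73 at 24 h, and the HRG values were 66.7 and 68.6, then 26.9 and 35.7, then 12.9 and 10.5. The member 33478 bp from MRPL39, a gene of the mitochondrial ribosome, went from 49.1 and 49.7 with EGF and 51.4 and 51.3 with HRG at 1 h to 4.55 and 21.3 with EGF and 19.7 and 44.1 with HRG at 24 h. Near CAB39, which encodes a scaffold of the LKB1 kinase, the values at 1 h were 51.6 and 55.5 with EGF and 59.9 and 59.7 with HRG, and at 24 h 8.62 in 1 EGF library and 2.13 and 26.1 with HRG. The member 169611 bp from BCOR, a corepressor gene, had 7 of 8 late ligand peaks and was open in BT474R at 36 and 32.4 in the 1 h control and at 62.9 and 57.9 with EGF at 1 h. None of the 4 had a peak in a late BT474 control.

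Among the 12 h only members, the one 1440 bp upstream of ITGA2, the gene of the collagen-binding integrin alpha 2 chain, stood at 46.8 and 44.8 with EGF and 53.3 and 58 with HRG at 1 h, at 8.19 and 29.3 with EGF and 37.1 and 37.2 with HRG at 12 h, and at 13 in 1 HRG library at 24 h. SULF2, the gene of a sulfatase that edits heparan sulfate on the cell surface, was nearest to 4 members, of which 1 was kept, 1 closed, 1 was 12 h only and 1 intermediate. Its 12 h only member in an intron stood at 29.3 and 49.2 with HRG and 24.2 and 13.2 with EGF at 12 h, at 4.88 in 1 HRG library at 24 h, and had no peak in BT474R. The RAP1A member, 26620 bp upstream of the gene of a RAS family GTPase, stood at 45.4 and 36 with EGF and 39.4 and 47.7 with HRG at 1 h and at 0.871 and 11.2 with EGF and 12.2 and 14.6 with HRG at 12 h. The intronic NPAS3 member, near the gene of a neuronal transcription factor, had 25 and 29 with HRG and 31.9 in 1 EGF library at 12 h and nothing at 24 h. Of the 22 members open at 24 h only, the strongest at 1 h was near GCNT3, a mucin glycosyltransferase gene, with 0.967 and 13.9 with EGF and 0.24 and 5.13 with HRG at 24 h. The RERE member, 19204 bp from its start, had 12.3 and 5.07 with EGF and 10.1 in 1 HRG library at 24 h, and control peaks at 15.3 in 1 library at 12 h and 13.1 and 7.17 at 24 h. The RBP4 member, 186 bp from the start of the gene of the retinol carrier of plasma, had 8.74 and 10.5 with EGF and 9.82 in 1 HRG library at 24 h, and single control peaks of 4.36 at 12 h and 15.8 at 24 h. The intronic SRPK2 member, at a splicing factor kinase gene, had 4.43 and 22.5 with HRG and 24.2 in 1 EGF library at 24 h and no late control peak. Both RERE and RBP4 members thus had a late control peak above every one of their late ligand peaks.

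The 4 intermediate members with the highest 1 h ranks lay near UBAP1, TGFB2, ADAMTSL4 and THSD4. The UBAP1 member stood at 62.8 and 46.6 with EGF and 58.7 and 62.2 with HRG at 1 h, at 5.14 and 18.1 with EGF and 2.73 and 0.311 with HRG at 12 h, and at 7.34 in 1 EGF library and 27 in 1 HRG library at 24 h. The TGFB2 member, in an intron of the gene of a transforming growth factor ligand, stood at 49.5 and 40.4 with EGF and 58.5 and 63.1 with HRG at 1 h and at 12.3 and 15.7 with HRG at 12 h, with no other late BT474 peak. The THSD4 member stood at 44.2 and 37 with EGF and 48.6 and 47.2 with HRG at 1 h and kept 3.86 and 8.61 with EGF at 12 h and nothing at 24 h. The ADAMTSL4 member, 416 bp inside its start, had 49.2 and 41.4 with EGF and 49 and 50.6 with HRG at 1 h, late ligand peaks of 9.66, 6.6 and 4.44, and a control peak of 11.6 at 24 h.

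Nearest genes were taken up to 100 kb and name a region without showing that the gene is its target. Within that distance 1165 members lay nearest to 1070 genes, or 19.6 members per 1000 regions. Lists of pathway genes were counted against this figure. The adhesion, matrix and actin list of 35 genes had 16 members among 278 regions (57.6 per 1000) at 12 of its genes, with 6 kept and 6 closed. The immediate early list of 26 genes had 10 of 205 (48.8 per 1000) at 8 genes, with 5 kept and 4 closed. The AP-1 subunit list had 4 of 66, near ATF3, FOS, FOSL2 and MAFK, and the ERBB receptor and ligand list 4 of 72, near ERBB2, BTC and NRG2, the last with 2 members. The feedback inhibitor list had 2 of 199, near DUSP4 and LRIG1, the luminal list 4 of 197, near KRT8 with 2 members, KRT7 and TFAP2C, and the interferon and NF-kB list 3 of 79, near CCL20, LIF and NFKB1. The glycolysis and hypoxia list of 26 genes had 0 members among 190 regions. FOS, DUSP4, TFAP2C and NFKB1 fell outside the rule for named genes and are given to complete these counts.

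Immediate early genes held members of both fates. The member 6554 bp from EGR3, the gene of an early growth response factor, had 22.9 and 33.1 with EGF and 63.4 and 62.2 with HRG at 1 h and no other peak in either line, and the one 7464 bp from TRIB1, a pseudokinase gene, had 21.2 and 25.5 with EGF and 43 and 80.2 with HRG and no other peak. By contrast the member 25199 bp upstream of IER3, a stress-induced survival gene, stood at 3.61 and 24.7 with EGF and 18.6 and 25.3 with HRG at 1 h and at 28.1 and 31.4 with EGF and 32.7 and 23 with HRG at 24 h. At ZFP36L2, the gene of an mRNA decay factor, the member 26448 bp away had 14.5 and 25.9 with EGF and 29.6 and 17.9 with HRG at 1 h, 29 and 40.4 with EGF and 47.8 and 47.3 with HRG at 12 h, and 29.6 and 47.7 with EGF and 30.1 and 27.3 with HRG at 24 h. It was open in all 20 BT474R libraries, at 52.6 and 44.4 already at baseline.

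Genes of the AP-1 subunit list, which held MAFK and ATF3 beside FOS family genes, were themselves near members. The member 3295 bp inside MAFK, which encodes a small MAF protein, stood at 29.9 and 38.8 with EGF and 31.3 and 32.2 with HRG at 1 h and at 21.9 and 29.4 with EGF and 18 and 14.2 with HRG at 24 h. The member 3519 bp upstream of ATF3, a stress-induced partner of JUN, stood at 26.9 and 17.7 with EGF and 46.2 and 43.6 with HRG at 1 h, at 17.1 and 15.1 with HRG and 5.17 in 1 EGF library at 12 h, and had no peak in BT474 at 24 h. The member 33346 bp upstream of FOSL2, a FOS family gene, was kept, with 18 and 12.6 with EGF and 26.7 and 17.4 with HRG at 24 h, but also had 1 control peak at each late time, at 9.58 and 13, and was open in BT474R at baseline at 49.1 and 19.8.

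At adhesion and actin genes, 2 of the 3 integrin members were kept, and all 5 members at FLNA, VCL and ACTN1 were closed. Near ITGA5, the fibronectin receptor alpha chain, the values went from 10.5 and 21 with EGF and 10.2 and 16.9 with HRG at 1 h to 25 and 23.2 with EGF and 22.1 and 23.9 with HRG at 24 h. The ITGAV member had 7 of 8 late ligand peaks, at 2.09 to 18 at 12 h and 1.37 to 9.93 at 24 h. Of the 2 members at FLNA, the gene of the actin cross-linker filamin A, the stronger stood at 35.6 and 46.9 with EGF and 65.9 and 66.7 with HRG at 1 h and had no other peak, and the other kept a single late peak of 2.63. The ACTN1 and VCL members, at the genes of alpha-actinin and vinculin, were closed as well, the first with 27.5 to 37.9 at 1 h and 1 late peak of 6.48. SDC1, the gene of the heparan sulfate proteoglycan syndecan, was nearest to 3 members, of which 2 were kept and 1 intermediate.

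ERBB2, which encodes HER2, had 1 kept member in an intron of the neighboring gene PGAP3, 3260 bp upstream of its start. It stood at 31.8 and 34.9 with EGF and 23 and 31.1 with HRG at 1 h, at 20.4 and 37.9 with EGF and 25.6 and 28.3 with HRG at 12 h, and at 16.1 and 28.5 with EGF and 21.1 and 32.5 with HRG at 24 h. Control peaks appeared at 7.41 and 4.13 at 12 h and 8.65 in 1 library at 24 h, all lower than every ligand value. In BT474R it had no peak at baseline or in any control, 35.5 and 24.2 with EGF and 9.33 and 15.2 with HRG at 1 h, and 1 later peak at 11.3. The members near BTC and LRIG1, the genes of the EGFR ligand betacellulin and of a membrane protein that turns ERBB receptors over, were intermediate.

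Keratin members closed. The 2 members 12996 and 12109 bp from KRT8, a luminal keratin gene, had 1 h values of 11.6 and 62.4 with EGF and 22.4 and 78 with HRG for the first and 6.13 and 0.804 with EGF and 40 and 31 with HRG for the second, and no peak at any other time or in BT474R. The KRT7 member, 4684 bp upstream, had 21.5 and 18 with EGF and 28 and 15.5 with HRG at 1 h and at 24 h a single ligand peak of 14.2 and a control peak of 6.82.

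Other genes with at least 3 members were ARHGAP42, the gene of a GTPase-activating protein whose 3 members all closed, RPA3, a gene of the single-stranded DNA-binding complex whose 3 members were all kept, ATXN1, with 1 kept and 2 intermediate, and YWHAZ, a 14-3-3 gene, with 1 kept and 2 closed. At promoters, the member 25 bp from the start of CD22, a B cell lectin gene, was kept, with 33.6 and 43 with EGF and 20.3 and 43 with HRG at 1 h and 27.9 and 39.7 with EGF and 42.6 and 30.5 with HRG at 24 h, no control peak, and in BT474R peaks only with EGF at 24 h, at 11.8 and 3.9. The member 269 bp upstream of WDR1, the gene of a cofilin cofactor, was kept at lower ranks, from 30.9 and 40.2 with EGF and 50.2 and 57.1 with HRG at 1 h to 0.117 in 1 EGF library and 6.94 and 11.2 with HRG at 24 h. The CAPN12 promoter member, at a calpain protease gene, closed after 31.7 and 19.5 with EGF and 39 and 51.9 with HRG at 1 h, with 1 later peak at 12.1. The EMILIN2 promoter member, at the gene of an extracellular matrix glycoprotein, stood at 42.1 and 22.3 with EGF and 43.2 and 34.7 with HRG at 1 h, had late ligand peaks of 24.4, 30.3 and 5.47 and control peaks of 39.1 and 0.465 at 24 h. The TUB promoter member was 12 h only, with 30.4 and 39 with EGF and 23.2 and 41.7 with HRG at 1 h, late ligand peaks from 1.12 to 8.75 and no control peak.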

How the data were processed

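ATAC-seq peaks of 40 libraries were used, 2 in each of 20 groups taken from the sample labels. As the study's methods describe, reads were trimmed by the authors (Trim Galore 0.6.6), mapped to GRCh38 with BBMap and passed to Genrich, which called peaks per library, without mitochondrial reads and ENCODE blacklisted regions. The sources used here do not give Genrich's options, which can change the width and number of peaks. The authors deposited for each peak a score (the area under the curve of significance, lowest value 200, so weaker peaks were not listed), with a −log10 p and a −log10 q that were not used. The score depends on the depth of its library and was used only as a rank within its list. Sequencing depth is unknown here, and the study's count model on reads was not repeated because read counts were not analysed here, so presence of a peak was tested instead.

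Merging, late classes and tests are as given above. Regions in at least 2 lists were tested by Fisher's exact test. Gene starts were taken from GENCODE release 44 and sequence from hg38. The members, gene lists and motifs were chosen with earlier results of these data known. Named genes were the 4 members of each late class with the highest mean rank percentile at 1 h, up to 30 members nearest a gene of 9 lists (209 genes), genes nearest to at least 3 members, and the 6 highest promoter members. The results of 1 of the 9 lists and of some members so chosen are not reported here. Intervals cover counting error only. Alternatives were peaks scoring 400 or more, the same number of top peaks from every list, peaks trimmed to 400 bp, 50% of a region covered, BT474 lists alone, other list minimums, stricter rules, time or replicate strata, each library left out, a whole-region or 125 bp motif window, promoters of 3 kb and genes within 10 kb. Tables were made with pandas 2.3.3 and numpy 2.4.6 under Python 3.11.15, tests with scipy 1.17.1, sequence was read through samtools 1.23.1 and pysam 0.24.0, and matplotlib 3.10.9 made the figures.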

Additional observations from a re-analysis of the deposited data

Results flagged for a closer look

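Among the 4 ligand libraries of BT474 at 12 h, EGF replicate 1 stood apart from the other libraries by Dixon's gap measure, with a peak in 618 members against 912 to 931. Chance alone flags about 1 in 20 such groups, and 6 groups were examined. Its list, at 52135 peaks, was the shortest of the 8 late ligand lists of BT474, and its member peaks had a median rank percentile of 11.3 against 16.8 to 18.6 in the other 12 h ligand libraries. The cause was not tested. With the thresholds changed as given above, 618 members were kept without it, 216 were 12 h only and 485 closed. In the late comparison, where a call then needed fewer late ligand libraries, 471 members were called without it.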

How the results depend on the processing

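Which regions meet the rule depends on the peak score. With a score of at least 400 only 4.02% of the 1491 members remained, and with an equal number of top peaks 3.49%, against 98.9% with peaks trimmed to 400 bp, 89.7% with 50% of the region covered and 100% with BT474 lists alone. With a score of at least 400 there were 72 regions open at 12 h only and 9 at 24 h only, and calls numbered 1 for EGF against HRG, 7 for 12 h against 24 h and 54 for BT474R late ligand. With equal top peaks there were 963 members, 249 kept and 35 at 12 h only, with 185 late calls (94 adjusted), 5 for EGF against HRG, 2 for 12 h against 24 h, 42 for BT474R late ligand and 102 between the lines. Trimming gave 35 regions at 24 h only and 1 call for EGF against HRG, and 50% cover gave 8 calls for 12 h against 24 h. A peak in all 4 ligand lists left 854 members, 378 kept, 66 and 11 at one time only and 227 closed. Counting 4 of 4 lists as open and 0 of 4 as closed gave 358 kept, 14 and 0 at one time only and 292 closed. AP-1 matched in 50.1% of members, 66% of kept and 30.2% of closed ones over the whole region, and in 61% of kept and 28.6% of closed ones with equal top peaks. The promoter share was 13.2% within 3 kb. Of the gene lists, 8 had fewer members within 10 kb (0 to 8). The cause of these changes was not tested. Under every alternative run for it AP-1 was commoner in kept than in closed regions. The other 199 values stayed within 1.5 times the reported count or within its interval.

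The thresholds changed as given above when a ligand library was left out, and without a baseline or 1 h control library the rule was looser. Leaving out single libraries gave 928 to 1804 members, 401 to 744 kept, 70 to 216 at 12 h only, 11 to 54 at 24 h only and 250 to 553 closed. Calls ranged from 357 to 471 for late ligand against control (240 to 292 adjusted), 1 to 9 for EGF against HRG, 15 to 31 for 12 h against 24 h, 314 to 367 between the lines, 43 to 76 for BT474R at 1 h and 63 to 117 for BT474R late ligand. Members fell to 928 without HRG at 1 h replicate 2 and 954 without EGF at 1 h replicate 1, and closed members to 250, 265 and 303 without these 2 and HRG at 1 h replicate 1. The 24 h only class was 13, 13 and 11 without those 3, and 54, 50, 51, 37 and 43 without HRG at 12 h replicates 1 and 2, EGF at 12 h replicate 2 and HRG at 24 h replicates 1 and 2.

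Same-numbered libraries did not deviate together: the correlation of replicate differences exceeded 0.1 in 1 of 15 pairs of late BT474 groups, 3 of 15 of late BT474R groups and 1 of 6 at 1 h in BT474R. With a replicate block the 12 h against 24 h and BT474R 1 h comparisons had 0 calls, since strata of this size cannot reach the threshold, and no other count moved by over 1.5 times. Peaks below the lowest listed score cannot be seen, so a closed region may hold a weaker peak.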
